A study of Homo sapiens with 9 samples.

Results

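Both small interfering RNAs (siRNAs) against SKP2 were compared directly with each other, gene by gene, in the 6 of the series' 9 RNA-seq libraries that received them, 3 libraries per siRNA. The libraries titled SKP2-1 are called SKP2-siRNA1 here and those titled SKP2-2 are called SKP2-siRNA2. All 9 libraries came from MDA-MB-231 cells, an established human line of triple-negative, mesenchymal-like breast cancer, grown in DMEM and reverse transfected, which means that cells were plated onto the transfection mix, and harvested after 96 h. The 3 nontargeting control (NC) libraries had the same culture and transfection with an siRNA that has no intended target; they entered no test below, and their levels are printed beside the comparison as the background. The target is SKP2 in the series' title and in the labels of the siRNA libraries, but the design text speaks of ZIP7, the zinc transporter encoded by SLC39A7, so both genes are reported. All groups are 1 cell line, and the labels do not say whether replicates are separate cultures, so p-values measure only the spread between these libraries, possibly a technical one.

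The SCF ubiquitin ligase receives its substrates from F-box proteins, of which SKP2 is one, and the best known substrate of SKP2 is the CDK inhibitor p27, encoded by CDKN1B. Lowering SKP2 is known for slowing entry into S phase through a longer-lived p27 protein, a step that RNA counts do not show. An siRNA guide strand cuts the transcript it matches in full, and it can also lower other transcripts whose 3′ untranslated region (3′UTR) pairs with its seed, bases 2 to 8 from the 5′ end, as a microRNA does. A comparison of a pair of siRNAs against 1 target therefore holds whatever differs between them in the depth of knockdown, in effects on other transcripts and in the cells' reaction to the duplex, and the counts alone do not divide it into these parts.

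Each of the 6 siRNA libraries held 39.2 to 49.9 M counts in genes and the NC libraries 35.5 to 48.6 M, and 16250 genes passed the filter on low counts, 13048 of them protein-coding. Levels are given as CPM, the usual library-size scaling of counts, adjusted by TMM, differences as SKP2-siRNA2 minus SKP2-siRNA1 on the log2 scale, and a gene was called at an adjusted p below 0.05 in edgeR's quasi-likelihood test with Benjamini-Hochberg adjustment over all genes tested. A single signed value in parentheses after a gene is its log2 difference, and 3 means without group names are those of SKP2-siRNA1, SKP2-siRNA2 and NC, in this order. The siRNA separated the libraries on the first principal component, with 73.9% of the variance. On the second, with 10.7%, the SKP2-siRNA1 libraries lay together between -0.93 and 1.80, while SKP2-siRNA2 replicates 1, 2 and 3 lay at -23.39, -0.54 and 21.28. These 3 libraries also differed with GC content: among 5 equal groups of genes by GC, the one with the highest GC, with a median of 61% GC, had a median relative level of -0.083, 0.113 and 0.241 on the log2 scale in replicates 1, 2 and 3, against -0.101, -0.083 and -0.107 in the SKP2-siRNA1 libraries. The line's own markers were abundant: VIM, the mesenchymal intermediate filament, averaged 2842 and 2959 CPM with SKP2-siRNA1 and SKP2-siRNA2, and CD44 1178 and 976 CPM, while the estrogen and progesterone receptor genes ESR1 and PGR had too few counts to be tested.

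Of the 16250 genes, 9302 (57.2%) differed between the siRNAs: 4761 were higher with SKP2-siRNA2 (29.3%) and 4541 were lower (27.9%). Every count of list members below is to be read beside these shares. The differences were mostly small. The median absolute log2 difference of the called genes was 0.43, and 1154 genes (7.1%) differed at least 2-fold, 439 higher and 715 lower. At 4-fold or more, 23 genes were higher and 78 lower. The biological coefficient of variation was 0.064 and the median standard error (SE) of a log2 difference 0.0703, so that small differences passed in abundant genes. With genes divided into 4 equal groups by level, the share called was 28.3% in the lowest and 75.4% in the highest. It was 63.7% among protein-coding genes and 33.7% among long noncoding RNA genes. The libraries of the siRNAs did not overlap for 10545 genes (64.9%). Without SKP2-siRNA2 replicate 1, 4935 genes were higher and 4994 lower, and without replicate 3 the counts were 4687 and 4745.

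**Figure D1:**
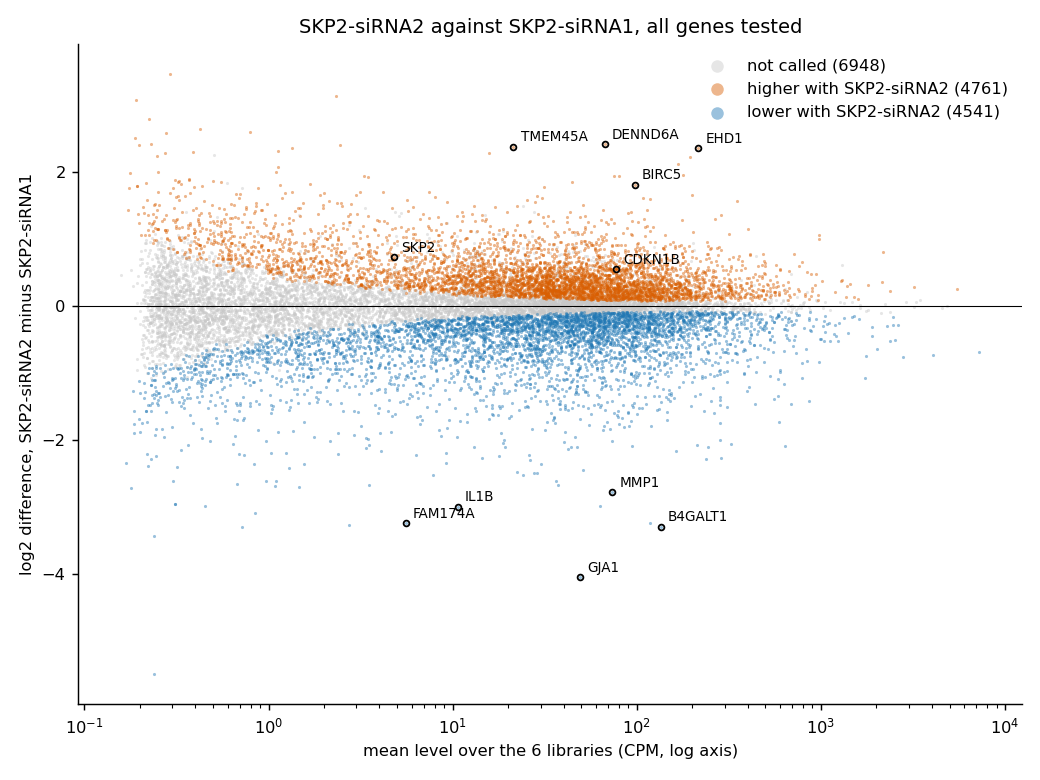
Each point is 1 of the 16250 genes tested: the x axis is its mean level over the 6 libraries in CPM on a log axis, the y axis the log2 difference, SKP2-siRNA2 minus SKP2-siRNA1, and colour marks the 4761 higher, 4541 lower and the uncalled genes. The lower side reaches further than the higher side among genes above 5 CPM, down to GJA1 at -4.04, against 2.41 for DENND6A.

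The target itself was depleted with either siRNA, and further with the first. SKP2 ran at 3.54, 3.33 and 3.94 CPM with SKP2-siRNA1, 6.13, 5.72 and 6.14 CPM with SKP2-siRNA2 and 58.02, 64.4 and 65.4 CPM in the NC libraries. The SKP2-siRNA1 libraries lay below every SKP2-siRNA2 library, and all 6 lay far below NC. The difference between the siRNAs was 0.73 (SE 0.092), 1.66-fold, with an edgeR adjusted p of 6.91e-05. SLC39A7, the transporter named in the design text, ran at 347, 344 and 345 CPM, 360.0, 378 and 361 CPM and 342, 355 and 338 CPM in the same order of groups. Its log2 difference of 0.08 (SE 0.029) passed at an edgeR adjusted p of 0.0318, and the highest adjusted p over the alternatives was 0.28, so the call depended on the processing.

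CDKN1B, which encodes p27, was higher with SKP2-siRNA2 than with SKP2-siRNA1. Its RNA ran at 61.8, 61.1 and 64.2 CPM with SKP2-siRNA1 and 86.03, 88.3 and 100.02 CPM with SKP2-siRNA2, against a mean of 65.1 CPM in NC, and the groups did not overlap (log2 difference 0.55, SE 0.056, edgeR adjusted p 3.20e-05). CDKN1A, which encodes the related inhibitor p21, averaged 72.1 ± 0.223 and 63.3 ± 6.76 CPM (SD, n = 3) and did not pass (log2 difference -0.19, edgeR adjusted p 0.0524). CDKN1C, encoding p57, was higher with SKP2-siRNA2 at a low level, 1.7 ± 0.192 against 2.66 ± 0.752 CPM (SD, n = 3), and its call was lost in some alternatives, with an edgeR adjusted p of up to 0.134. Of the 14 genes whose proteins are reported SKP2 substrates, 9 were higher, 2 were lower and 3 were not called, beside 29.3% higher and 27.9% lower over all genes, with a median log2 difference of 0.38 beside 0.03. The higher ones included CCND1, the D-type cyclin, at 653, 649 and 648 CPM with SKP2-siRNA1 and 1277, 1246 and 1388 CPM with SKP2-siRNA2 (log2 difference 1.004), and E2F1, the S-phase transcription factor, at means of 52.4 and 78.1 CPM (0.57). TOB1, an antiproliferative adaptor, and NBN, a DNA break sensor, were the 2 lower ones, at -0.29 and -0.15. CDT1, the replication licensing factor, ran at 8.52, 9.16 and 8.71 CPM with SKP2-siRNA1 and 14.5, 20.5 and 29.7 CPM with SKP2-siRNA2; the latter libraries differed among themselves in the same order as in GC content, whose part in this difference was not tested, and the call was lost in some alternatives, with an edgeR adjusted p of up to 0.0614. The highest log2 difference on this list of substrates, 1.30, is also the highest on the list of DNA replication and E2F targets. The lists thus overlap, and their counts are not separate results. In such bulk RNA, fewer dividing cells and less RNA of these genes per cell cannot be told apart.

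Among 18 genes listed for the SCF ligase and its cofactors, with the cyclins CCNE1 and CCNE2 counted in, 11 were higher with SKP2-siRNA2, 3 lower and 4 not called (median 0.20). Over all genes 29.3% were higher and 27.9% lower. CCNE1 is also on the list of DNA replication and E2F targets. CKS1B, the small cofactor with which SKP2 recognises p27, averaged 60.2 CPM with SKP2-siRNA1 and 80.5 CPM with SKP2-siRNA2, below the NC mean of 111 CPM. CAND1, which exchanges F-box proteins on the ligase, averaged 143 and 186 CPM (0.38), and CCNE2, a cyclin that activates CDK2, 19.2 and 32.2 CPM (0.74). The lower genes were SKP1 (-0.21), the adaptor that holds the F-box protein, UBE2R2 (-0.32), a ubiquitin-conjugating enzyme, and CCNE1 (-0.63). The pair of E-type cyclins thus differed in opposite directions, and both averaged less than in NC, where CCNE1 stood at 17.8 and CCNE2 at 62.5 CPM.

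Among genes that averaged at least 5 CPM, the 12 with the largest higher and the 12 with the largest lower differences mostly stood nearer to NC with one siRNA than with the other. Of the 12 higher ones, 11 were nearer to NC with SKP2-siRNA2, and of the 12 lower ones, 10 were nearer to NC with SKP2-siRNA1, by the ratio of means. DENND6A, which encodes a protein of membrane trafficking, ran at 21.4, 20.5 and 21.5 CPM with SKP2-siRNA1, 117, 110.2 and 111 CPM with SKP2-siRNA2 and 69.3, 78.7 and 84.5 CPM in NC. The SKP2-siRNA1 libraries were the low ones, and the log2 difference was 2.41 (SE 0.04, edgeR adjusted p 9.05e-11). GLO1, the glyoxalase that clears methylglyoxal, ran at 71.2, 68.4 and 66.3 CPM, 301, 317 and 348 CPM and 290.4, 267 and 281 CPM (2.23, SE 0.057). CAPZA1, a subunit of the actin capping protein, ran at 63.2, 62.7 and 61.3 CPM, 286, 261 and 265 CPM and 325, 362 and 385 CPM (2.12, SE 0.039). In both, SKP2-siRNA2 and NC lay within 1.5-fold of each other by their means and SKP2-siRNA1 far below. BIRC5, which encodes survivin, averaged 43.4 CPM with SKP2-siRNA1, 152 CPM with SKP2-siRNA2 and 171 CPM in NC (1.81), and CBX5, which encodes the heterochromatin protein HP1 alpha, 73.7, 285 and 298 CPM (1.95). TMEM45A, a membrane protein gene, did not follow this order: it averaged 6.91 CPM with SKP2-siRNA1, 35.9 CPM with SKP2-siRNA2 and 10.3 CPM in NC (2.38). EHD1, an endocytic recycling gene, ran at 70.9, 70.4 and 71.01 CPM with SKP2-siRNA1 and 299, 329.9 and 453 CPM with SKP2-siRNA2 (2.35, SE 0.18), the spread of the latter again following the GC order of the libraries. The other 5 of the 12 largest, THRB (2.27), SDC1 (1.95), RPRD1A (1.94), FCHO2 (1.85) and LRRC47 (1.77), encode a thyroid hormone receptor, the proteoglycan syndecan-1, a regulator of RNA polymerase II, an endocytic membrane-bending protein and a leucine-rich repeat protein.

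On the lower side the order turned round, and SKP2-siRNA2 was mostly the group further from NC. GJA1, which encodes the gap junction protein connexin 43, ran at 93.2, 89.1 and 95.7 CPM with SKP2-siRNA1, 5.75, 5.08 and 6.02 CPM with SKP2-siRNA2 and 51.9, 57.99 and 58.3 CPM in NC, a 16.5-fold difference between the siRNAs (-4.04, SE 0.062, edgeR adjusted p 6.45e-11). LAMP1, a main glycoprotein of the lysosomal membrane, ran at 215, 214 and 212 CPM, 20.98, 23.8 and 23.7 CPM and 212, 217 and 212 CPM. Its SKP2-siRNA1 and NC libraries overlapped, and the SKP2-siRNA2 libraries were 9.36-fold lower than SKP2-siRNA1 (-3.23, SE 0.047, edgeR adjusted p 5.88e-11). B4GALT1, a galactosyltransferase of the Golgi, averaged 244, 24.99 and 193 CPM (-3.29), FYTTD1, an mRNA export adaptor, 112, 14.1 and 95.6 CPM (-2.98), and SLC7A2, a cationic amino acid transporter, 64.8, 10.2 and 72.6 CPM (-2.67). FAM174A differed by -3.24 and PLXDC2 by -2.49. IL1B and MMP1 had the other arrangement, high with SKP2-siRNA1 and near NC with SKP2-siRNA2. IL1B, which encodes the inflammatory cytokine interleukin-1 beta, ran at 16.9, 18.3 and 21.5 CPM, 2.88, 2.05 and 2.24 CPM and 2.89, 3.34 and 3.31 CPM (-2.99, SE 0.14), and MMP1, the interstitial collagenase, at 131, 122 and 133 CPM, 19.2, 17.6 and 19.6 CPM and 19.1, 20.1 and 23.1 CPM (-2.78, SE 0.051). The complement gene C3 (-2.61), the growth factor gene CSF3 (-2.52) and the trypsinogen gene PRSS2 (-2.52), whose reads may be shared with near-identical trypsinogen genes, complete the 12.

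**Figure D2:**
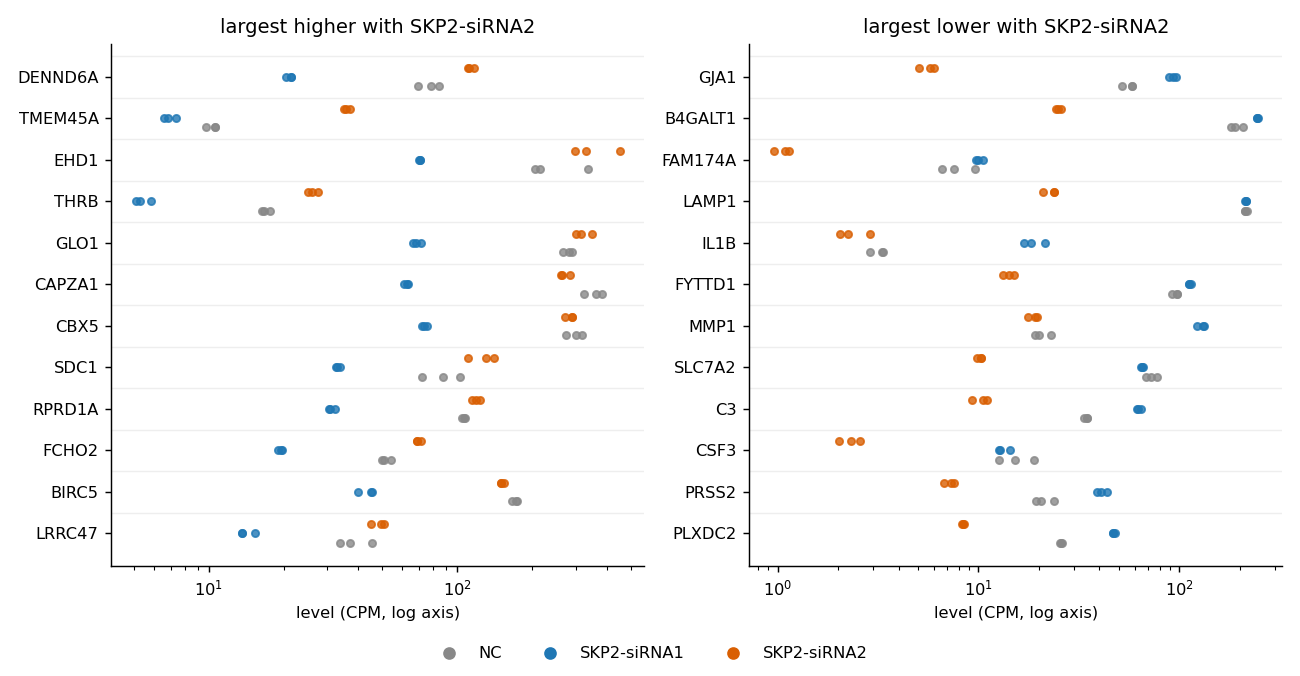
Levels in CPM on a log axis of the 12 genes with the largest higher and the 12 with the largest lower log2 differences with SKP2-siRNA2; each point is 1 library, with NC in grey, SKP2-siRNA1 in blue and SKP2-siRNA2 in orange. For most genes on the left the blue points stand away from NC, as for CAPZA1, and for most on the right the orange ones, as for LAMP1; TMEM45A, IL1B and MMP1 are arranged otherwise.

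By absolute amount, cytoskeletal and mitochondrial transcripts were among the largest differences. ACTB, encoding beta-actin, averaged 4968 CPM with SKP2-siRNA1 and 5953 CPM with SKP2-siRNA2, and MYH9, encoding nonmuscle myosin IIA, 1587 and 2771 CPM. AXL, the receptor tyrosine kinase that marks mesenchymal breast cancer lines, ran at 632, 637 and 634 CPM with SKP2-siRNA1, 1339.6, 1294 and 1324 CPM with SKP2-siRNA2 and 1410.2, 1395 and 1426 CPM in NC, 2.08-fold higher with SKP2-siRNA2 (log2 difference 1.06, SE 0.029). Of the 13 protein-coding transcripts of the mitochondrial genome, 9 were lower with SKP2-siRNA2, 1 was higher and 3 were not called, with a median of -0.45. MT-CO1, a cytochrome oxidase subunit, averaged 5032 CPM with SKP2-siRNA1 and 3049 CPM with SKP2-siRNA2 (-0.72), and MT-CO2 3490.0 and 2063 CPM (-0.76), whereas MT-ND1, a complex I subunit, was the higher one (0.32). Of 41 nuclear genes of oxidative phosphorylation, 10 were higher, 7 lower and 24 not called (median 0.06). NDUFA5, another complex I subunit, ran at 14.6, 15.9 and 14.7 CPM with SKP2-siRNA1, 48.7, 44.4 and 44.2 CPM with SKP2-siRNA2 and a mean of 41.4 CPM in NC (1.604, SE 0.056).

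Of the 2048 long noncoding RNA genes tested, 332 were higher and 359 lower. Among those with a mean of at least 1 CPM, ENSG00000253414, one of 2 Ensembl genes that carry the symbol LINC01605, averaged 0.426 CPM with SKP2-siRNA1 and 1.76 CPM with SKP2-siRNA2 (2.00), HIF1A-AS3 1.45 and 5.48 CPM (1.92) and CSTF3-DT 0.586 and 1.88 CPM (1.68). The other LINC01605 gene, ENSG00000253161, averaged 8.55 and 13.5 CPM (0.66). LINC02015 (-1.95), LINC03014 (-1.88) and GACAT2 (-1.46) had the largest lower differences above that level. The strand used in counting is not given in the sources used here, so reads of HIF1A-AS3 and of the gene opposite it cannot be told apart.

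The sequences of the siRNAs are not in the sources used here, so the 3′UTRs of the genes were searched for short words that go with the difference. All 7-letter words held by at least 200 of 11908 protein-coding genes above 1 CPM, 14247 words in all, were ranked after a fit of the log2 difference on 3′UTR length and GC content. The rank follows the mean of the genes with the word minus that of the genes without it, weighted by how many genes hold the word, so a commoner word can stand before one with a larger difference. The ranking is a description with no test, and its 3 words were chosen after their values were seen. The word that went most strongly with lower RNA under SKP2-siRNA2 was TGGTGTT, held by 2084 genes, with a fitted mean difference, with the word minus without, of -0.223. Next, leaving out words that overlap it, came CCTTTAA, at place 4 with 2033 genes and -0.144. The word that went most strongly with higher RNA under SKP2-siRNA2 was AAGTGAT, with 2370 genes and 0.149. Without the fit its mean difference was only 0.036, against -0.31 for TGGTGTT and -0.253 for CCTTTAA, so its place rests largely on the fit. TGGTGTT and AAGTGAT were also first when the 3′UTR of the transcript with the longest coding part was used; without the fit on length and GC, TGGTGTT was first, CCTTTAA at place 3 and AAGTGAT at place 358 of the higher words. Overlapping words filled the ends of the ranking: of the 20 lowest words 8 held GGTGTT and 6 held CCTTTA, and of the 20 highest words 11 held AGTGAT or GTGATA. Without the fit, AGTGATA was at place 532 and AGTGATT at 2965 of the higher words. Of the lower words, GGTGTTT was then at place 2 and ACCTTTA at 5, but CGGTGTT at 4693.

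The copies in genes of the largest differences are printed as examples of the words in place, 5′ to 3′ in the sense of the transcript, with the word in capitals. For AAGTGAT these are GLO1 (3′UTR at chr6:38676758-38676781, minus strand), CAPZA1 (chr1:112670191-112670214, plus), EHD1 (chr11:64853612-64853635, minus), THRB (chr3:24118415-24118438, minus) and FCHO2 (chr5:73088094-73088117, plus). For TGGTGTT they are GJA1 (chr6:121448905-121448928, plus), LAMP1 (chr13:113322914-113322937, plus), B4GALT1 (chr9:33112567-33112590, minus) and FYTTD1 (chr3:197782539-197782562, plus), and for CCTTTAA FYTTD1 again (chr3:197782320-197782343, plus) and FAM174A (chr5:100586301-100586324, plus). Positions are those of GENCODE 29 on GRCh38, in the longest annotated 3′UTR of each gene.
GLO1: gatagaaaAAGTGATttcttctta
CAPZA1: tgataaatAAGTGATttataaaca
EHD1: gttctgtaAAGTGATatctttcat
THRB: acagtgttAAGTGATattgctaga
FCHO2: acctgggaAAGTGATgtggcttca
GJA1: tgcacataTGGTGTTcaaatttga
LAMP1: tagggttcTGGTGTTtggtttctt
B4GALT1: ttttattgTGGTGTTttaaatatg
FYTTD1, first word: taaaatgtTGGTGTTtagagactg
FYTTD1, second word: tcacttgcCCTTTAAtagtgttga
FAM174A: tttaacaaCCTTTAAtttgctgtt

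Of the 12 genes with the largest higher differences, 9 held AAGTGAT in the 3′UTR, against 19.9% of all genes in the search. Of the 12 with the largest lower differences, 8 held TGGTGTT or CCTTTAA, against 29.2%. The words were ranked on these same differences, so the counts are no separate support for them. The shares over all genes were not matched for 3′UTR length. GLO1 held 3 copies of AAGTGAT and FCHO2 and CBX5 held 4 each, while TMEM45A, SDC1 and BIRC5 held none. GJA1, LAMP1, B4GALT1, FYTTD1, SLC7A2 and PLXDC2 each held 2 copies of TGGTGTT, while MMP1, C3, CSF3 and PRSS2 held neither lower word. Words of the other direction occurred too. LAMP1 and SLC7A2, both lower, each held 1 copy of AAGTGAT. Among the higher genes, THRB and RPRD1A held 1 copy of CCTTTAA each, and CBX5 held 1 copy of each lower word.

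Over all 11908 genes, the classes with a lower word had lower medians than the class with none. The 7287 genes with none of the 3 words had a median log2 difference of 0.09, and 2.20% of them were at least 2-fold lower and 1.39% at least 2-fold higher. The 993 genes with TGGTGTT alone had a median of -0.205, with 9.57% at least 2-fold lower, and the 936 with CCTTTAA alone a median of -0.135, with 8.33%. In the 322 genes that held both lower words without the higher one the median was -0.38 and 16.8% were at least 2-fold lower. For TGGTGTT alone the median was -0.19 in 859 genes with 1 copy, -0.31 in 122 genes with 2 and -1.03 in 12 genes with 3 or more. The 1141 genes with AAGTGAT alone had a median of 0.16, near the genes with no word, but 6.05% of them were at least 2-fold higher, with 5.00% at 1 copy, 9.29% at 2 and 12.1% at 3 or more. Genes with a word in the coding part and none in the 3′UTR had medians of 0.00 for TGGTGTT, -0.04 for CCTTTAA and 0.09 for AAGTGAT, beside 0.11 in the 5282 genes with no word in either. The classes differ in more than the word: the median 3′UTR length was 853 bases with none of the words, 2179 with TGGTGTT alone and 2423 with AAGTGAT alone, with 45.3%, 41.8% and 39.8% GC. Length also rose with copies. It was 2040, 3214 and 5108 bases at 1, 2 and 3 or more copies of TGGTGTT alone, and 2138, 3374 and 4324 for AAGTGAT alone. The last group had 58 genes, 7 of them at least 2-fold higher. The part of length in the values by copy was not tested, and the words were chosen on these same differences.

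**Figure D3:**
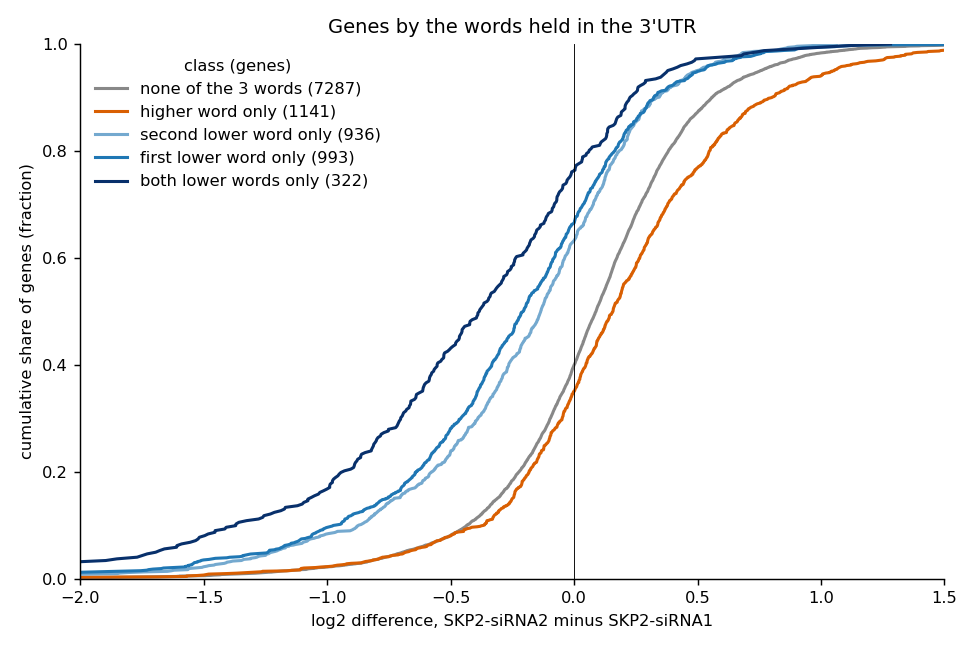
Cumulative share of genes (y axis, fraction) at or below each log2 difference, SKP2-siRNA2 minus SKP2-siRNA1 (x axis), for genes grouped by the 3′UTR words they hold; the first lower word is TGGTGTT, the second CCTTTAA and the higher word AAGTGAT. The curve of genes with both lower words lies furthest to the left, with a median of -0.38, and the curve of the higher word departs from that of no word mainly on the right.

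Read library by library, as the median log2 level relative to each gene's mean over the 6 siRNA libraries, genes with TGGTGTT alone stood at 0.105, 0.109 and 0.099 with SKP2-siRNA1, at -0.120, -0.107 and -0.107 with SKP2-siRNA2 and at 0.034, 0.053 and 0.079 in NC. The NC libraries lay between the siRNAs, and nearer to SKP2-siRNA1. Genes with AAGTGAT alone stood at -0.081, -0.078 and -0.081 with SKP2-siRNA1, 0.080, 0.067 and 0.072 with SKP2-siRNA2 and -0.018, 0.029 and 0.073 in NC. NC replicate 1 was the lowest of the NC libraries in both classes. For the genes with none of the words the SKP2-siRNA2 libraries spread from -0.008 to 0.067. These genes stood at -0.039, -0.041 and -0.042 with SKP2-siRNA1 and at -0.028, -0.067 and -0.077 in NC. The levels of the other classes are not corrected for this baseline.

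**Figure D4:**
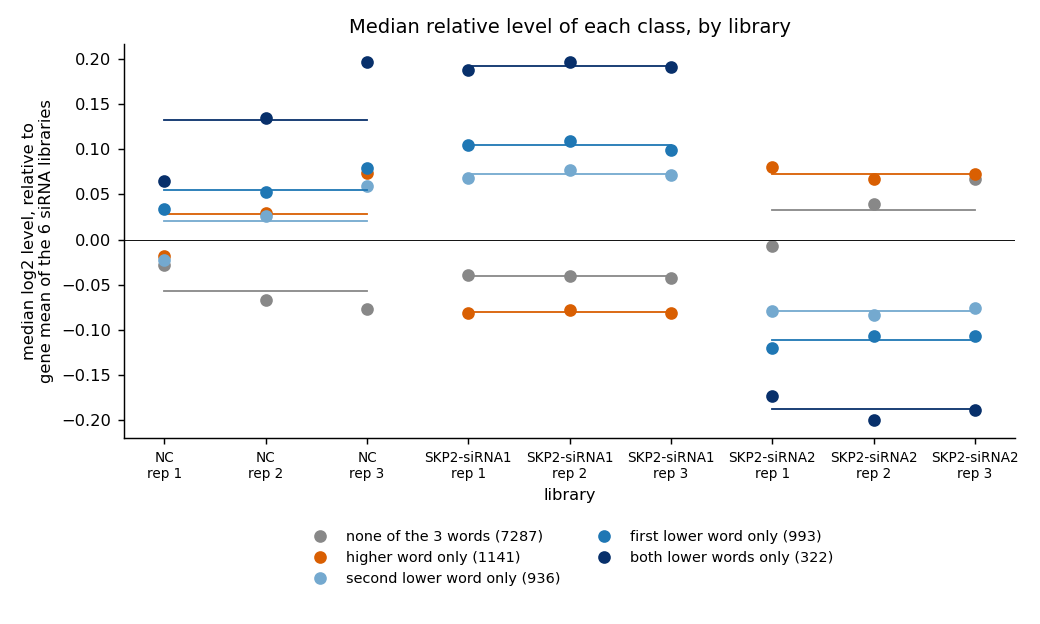
Median log2 level of each class of genes in each library (y axis), with each gene's mean over the 6 siRNA libraries set to 0; points are libraries, grouped along the x axis as NC, SKP2-siRNA1 and SKP2-siRNA2, and lines are the means of 3 libraries. Genes with both lower words stand at -0.173 to -0.200 with SKP2-siRNA2 and at 0.188 to 0.196 with SKP2-siRNA1.

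The coding sequence of SKP2 itself holds AAGTGAT and TGGTGTT, which is shown because an siRNA against SKP2 matches a stretch of it. How often such short words occur in other transcripts of this length was not counted. In transcript SKP2-202, of 3759 bases on the plus strand, AAGTGAT occurs once, across the junction of exons 8 and 9 (chr5:36176998-36177191, intron included). TGGTGTT occurs 2 times, in exon 3 (chr5:36163711-36163736) and in exon 7 (chr5:36171609-36171634). The exon 3 copy stands next to TAAAGG, the reverse complement of the 6 letters CCTTTA, with 17 bases from the first letter of one to the last of the other. This pair was picked as the nearest one, and TAAAGG occurs 2 times in the coding sequence. Only this word was shortened to 6 letters and searched as its reverse complement. Copies of CCTTTA itself in SKP2 were not counted. The base before TAAAGG in exon 3 is c, so the full reverse complement of CCTTTAA is absent at this place. In the lines that follow, the words and TAAAGG are in capitals.
SKP2, exons 8 and 9: ttgtccatctagacttAAGTGATagt
SKP2, exon 3: agctgcTAAAGGtctcTGGTGTTtgt
SKP2, exon 7: tgagctgaacctctccTGGTGTTttg
Whether any of these stretches is the site of an siRNA, and whether the words are matches to a seed, was not tested.

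The cell division genes were mostly higher with SKP2-siRNA2 than with SKP2-siRNA1, and with either siRNA their median level stood below NC. Relative to each gene's mean over the 6 siRNA libraries, the median level in the NC libraries was 0.79 to 0.82 for replication and E2F target genes and 1.06 to 1.249 for G2/M genes on the log2 scale. Of 50 genes of DNA replication and E2F targets, 42 were higher, 5 lower and 3 not called, beside 29.3% higher and 27.9% lower over all genes (median 0.45). FEN1, the flap endonuclease of lagging-strand synthesis, ran at 64.1, 62.97 and 57.05 CPM with SKP2-siRNA1, 126, 130.4 and 125 CPM with SKP2-siRNA2 and 182, 192 and 187 CPM in NC, with no overlap between any of the groups (1.05, SE 0.045, edgeR adjusted p 2.31e-08). TYMS, thymidylate synthase, averaged 81.9, 128 and 172 CPM (0.65), and RRM1, the large subunit of ribonucleotide reductase, 149, 214 and 319 CPM (0.52). The 5 lower genes were RAD51AP1 (-0.90), CCNE1 (-0.63), DUT (-0.59), POLD3 (-0.27) and SLBP (-0.27). Of 52 genes of G2/M and mitosis, 45 were higher, 4 lower and 3 not called, beside the same shares over all genes (median 0.41). MKI67, the proliferation antigen, ran at 359, 364 and 351 CPM with SKP2-siRNA1, 608, 634 and 603 CPM with SKP2-siRNA2 and 802, 843 and 882 CPM in NC (0.78, SE 0.031, edgeR adjusted p 1.54e-08). ESPL1, encoding separase, averaged 23.9, 59.9 and 106 CPM (1.32), BUB1, a checkpoint kinase, 94.4, 151 and 273 CPM (0.67), and FOXM1, the transcription factor of mitotic genes, 92.3, 147 and 203 CPM (0.67). The 4 lower genes were KIF14 (-0.88), KIF23 (-0.18), CKAP2 (-0.16) and ANLN (-0.11), the last of which lost its call in some alternatives.

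Of 19 genes on the list of replication-dependent histones, 1 was higher, 7 were lower and 11 were not called (median -0.18). H1-2, a linker histone, averaged 37.9 CPM with SKP2-siRNA1 and 19.3 CPM with SKP2-siRNA2 (-0.97). H2BC4 was the higher one (0.38). Histone genes are near-identical copies, among which the counting could have split reads.

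Interferon-stimulated genes were mostly lower with SKP2-siRNA2, where their summed level overlapped that of NC but their median level lay below it. Of 49 tested, 37 were lower, 3 higher and 9 not called, beside 27.9% lower and 29.3% higher over all genes (median -0.66). Their summed level was 4346 to 4520 CPM in the SKP2-siRNA1 libraries, 3092 to 3216 CPM with SKP2-siRNA2 and 3116 to 3231 CPM in NC. The median was also taken on the log2 scale, relative to each gene's mean over the siRNA libraries. It was -0.219, -0.375 and -0.363 in SKP2-siRNA2 replicates 1, 2 and 3, and -0.207, -0.195 and -0.179 in the NC libraries. IFIT1, an antiviral protein that binds foreign RNA, ran at 184, 189.9 and 179 CPM with SKP2-siRNA1, 55.6, 50.9 and 53.3 CPM with SKP2-siRNA2 and 48.4, 54.2 and 59.4 CPM in NC. The SKP2-siRNA2 and NC libraries overlapped, and the SKP2-siRNA1 libraries were 3.46-fold above SKP2-siRNA2 (-1.79, SE 0.04, edgeR adjusted p 3.28e-10). OASL, a relative of the oligoadenylate synthetases, ran at 53.6, 53.7 and 55.4 CPM, 17.8, 16.9 and 16.9 CPM and 15.2, 16.1 and 18.4 CPM (-1.66, SE 0.043). DDX60, a helicase of RNA sensing, averaged 141, 51.9 and 63.9 CPM (-1.44), IFIT2 219, 89.1 and 76.4 CPM (-1.29) and ISG20, an exonuclease, 30.9, 11.3 and 9.08 CPM (-1.44). ZC3HAV1, which binds viral RNA, differed by -0.96. SP100 (0.33), GBP1 (0.24) and LAMP3 (0.59) were the 3 higher genes, and LAMP3, below 1 CPM, lost its call in some alternatives.

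The promoters of these genes were searched for GAAA followed by any 2 letters and a second GAAA, on either strand. This is a simple form of the element that interferon-activated STAT and IRF factors bind. The RefSeq windows on GRCh38.p14 run from 250 bases before to 50 bases after each gene's start; 39 of the 49 genes had one. The motif was in 26 of the 39, in 20 of the 29 matched genes that were lower and in 6 of the 10 that were not, while 3.65% of 27305 windows held it. The list was written as interferon-stimulated genes, so its share beside all windows says nothing about the siRNAs. The shares of lower and other members were not compared by a test. The last 200 bases before the start are printed for IFIT1 (chr10:89392423-89392622, plus strand) and DDX60 (chr4:168318753-168318952, minus strand), members described above that hold the motif 2 times, with the motif in capitals. A match is a description of these letters, and factor binding was not measured.
IFIT1 promoter: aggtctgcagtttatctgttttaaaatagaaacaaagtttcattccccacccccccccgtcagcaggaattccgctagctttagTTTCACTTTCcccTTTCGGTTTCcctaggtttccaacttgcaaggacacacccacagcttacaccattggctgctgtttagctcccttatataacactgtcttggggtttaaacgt
DDX60 promoter: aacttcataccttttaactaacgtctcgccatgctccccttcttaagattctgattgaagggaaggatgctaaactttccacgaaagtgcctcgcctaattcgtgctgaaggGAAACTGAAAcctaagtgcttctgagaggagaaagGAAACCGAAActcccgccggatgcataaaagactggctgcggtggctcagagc

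The sensors and signalling genes of the interferon system were also mostly lower. Of 31 tested, 19 were lower, 4 higher and 8 not called (median -0.15), beside 27.9% lower and 29.3% higher over all genes. IFIH1, which encodes the double-stranded RNA sensor MDA5, ran at 40.02, 41.2 and 40.8 CPM with SKP2-siRNA1, 18.7, 15.9 and 16 CPM with SKP2-siRNA2 and 16.4, 18.9 and 19.3 CPM in NC (-1.27, SE 0.063). STAT2, a subunit of the interferon-activated factor, averaged 105 and 61.1 CPM (-0.78), and JAK1, a kinase of the receptor, 185 and 112 CPM against 179.6 CPM in NC (-0.73). JAK1 overlapped NC with SKP2-siRNA1, and IFIH1 overlapped NC with SKP2-siRNA2. SOCS3 (0.56), TRAF3 (0.54), EIF2AK2 (0.29) and CGAS (0.10) were higher; the CGAS libraries of both siRNAs overlapped and its call was lost in some alternatives. Of 20 genes of MHC class I presentation, 8 were lower, 1 higher and 11 not called (median -0.08). Their share called, 45%, was below the 57.2% over all genes. TAP1, the peptide transporter, differed by -0.39 and TAPBP, tapasin, by 0.33.

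Inflammatory cytokines and chemokines had the lowest median of the lists, at -0.96: of 30 tested, 24 were lower with SKP2-siRNA2, 2 higher and 4 not called, beside 27.9% lower and 29.3% higher over all genes. IL6, the interleukin of acute inflammation, ran at 396, 383 and 407 CPM with SKP2-siRNA1, 87.4, 81.1 and 74.7 CPM with SKP2-siRNA2 and 190.1, 199.5 and 212 CPM in NC. The NC libraries lay between both siRNAs without overlap (-2.29, SE 0.057, edgeR adjusted p 8.89e-09). CXCL8, the neutrophil chemokine, ran at 425, 417 and 410.4 CPM with SKP2-siRNA1 and 161, 148 and 143 CPM with SKP2-siRNA2, and at 378, 405 and 439 CPM in NC, so that it was at the NC level with the first siRNA (-1.47, SE 0.043). IL1A averaged 13.8, 3.59 and 4.17 CPM (-1.94) and PTGS2, the inducible cyclooxygenase, 73.8, 19.1 and 29.2 CPM (-1.95), both nearer to NC with the second siRNA. PTGES, the prostaglandin E synthase, differed by -0.98. CSF1, the macrophage growth factor, was one of the 2 higher genes, at means of 693 and 982 CPM (0.50), and IL15 the other (0.58).

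The NF-kB components that act on many of these genes did not share a direction: 12 of 24 were higher, 9 lower and 3 not called, and the median of 0.19 changed sign in at least 1 alternative. BIRC3, which holds off cell death downstream of TNF receptors, ran at 347, 346 and 343 CPM with SKP2-siRNA1, 80.9, 81.5 and 83.6 CPM with SKP2-siRNA2 and 317, 355 and 383 CPM in NC (-2.07, SE 0.028, edgeR adjusted p 3.74e-11). NFKBIA, the inhibitor IkB alpha, averaged 143 and 109.6 CPM (-0.38), whereas NFKB1 (0.38), CHUK (0.33) and MAP3K14 (0.63) were higher. Of 28 cytokine receptor genes, 13 were lower and 9 higher (median -0.18). OSMR, the oncostatin M receptor, averaged 395 and 222 CPM (-0.83), while IL6ST, the shared subunit gp130 with which it pairs, averaged 450.0 and 688 CPM (0.61).

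Genes of AP-1 and the immediate early response were mostly lower, with 16 of 30 lower, 3 higher and 11 not called (median -0.26). The share called, 63.3%, was near the 63.7% among protein-coding genes, while 27.9% of all genes were lower and 29.3% higher. SPRY2, a feedback inhibitor of receptor tyrosine kinase signalling, ran at 157, 160.5 and 159 CPM with SKP2-siRNA1, 62.1, 62.8 and 61.7 CPM with SKP2-siRNA2 and 85.8, 86.7 and 81.1 CPM in NC (-1.36, SE 0.028). EGR1, an early response transcription factor, averaged 14.7, 4.52 and 10.97 CPM (-1.69). FOSL1, the AP-1 subunit FRA1, was higher, at means of 171 and 272 CPM (0.67), as was DUSP5, a phosphatase of ERK (0.69). JUND was the third (0.35), and its sign turned with GC offsets.

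Of 25 integrin and laminin subunits, 14 were lower with SKP2-siRNA2, 4 higher and 7 not called, beside 27.9% lower and 29.3% higher over all genes (median -0.36). ITGA6, a laminin-binding integrin chain, ran at 1004, 1003 and 1012 CPM with SKP2-siRNA1, 371, 368 and 364 CPM with SKP2-siRNA2 and 543, 608 and 624 CPM in NC (-1.45, SE 0.028, edgeR adjusted p 1.56e-10). The NC libraries lay between the groups, as they did for ITGA2, a collagen-binding chain, with means of 1073, 509 and 625 CPM (-1.08), and LAMC1, the laminin gamma-1 chain, with 870.4, 391 and 506 CPM (-1.16). ITGB1, the common beta chain, averaged 1166, 834 and 1481 CPM (-0.48), below NC with either siRNA. The higher subunits were ITGA7 (1.12), ITGB2 (0.87), LAMA2 (0.50) and ITGA3 (0.21); ITGA7 and LAMA2 were near or below 1 CPM, and these genes with ITGA3 lost their calls in some alternatives.

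Of 42 matrix and mesenchymal genes, 21 were lower, 7 higher and 14 not called (median -0.22). The share called, 66.7%, was near the 63.7% among protein-coding genes, while 27.9% of all genes were lower and 29.3% higher. FN1, fibronectin, ran at 1182, 1282 and 1318 CPM with SKP2-siRNA1, 473, 478 and 466 CPM with SKP2-siRNA2 and 702, 728 and 743 CPM in NC (-1.42, SE 0.042). THBS1, thrombospondin-1, averaged 2206 and 1318 CPM (-0.74), and FBN1, fibrillin-1, 235, 131 and, in NC, 75.8 CPM (-0.84). Of 31 proteases and their inhibitors, 18 were lower, 4 higher and 9 not called (median -0.40). PLAT, the tissue plasminogen activator, ran at 1037, 1052 and 1007 CPM with SKP2-siRNA1, 239, 242 and 247 CPM with SKP2-siRNA2 and 296, 308 and 279 CPM in NC (-2.09, SE 0.032), and SERPINE2, which inhibits such proteases, averaged 49.8, 21.4 and 21.95 CPM (-1.22). TIMP2 (0.60), ADAM12 (0.54), PLAU (0.43) and ADAM9 (0.15) were higher. Of 29 epithelial genes, 8 were higher, 11 lower and 10 not called, with a median of 0.05 that changed sign in some alternatives. Their share called, 65.5%, was also near that among protein-coding genes. MAL2 (-1.42) and the tight junction gene CLDN1 (-1.42) were lower, and KRT80, a keratin, was higher (1.36).

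**Figure D5:**
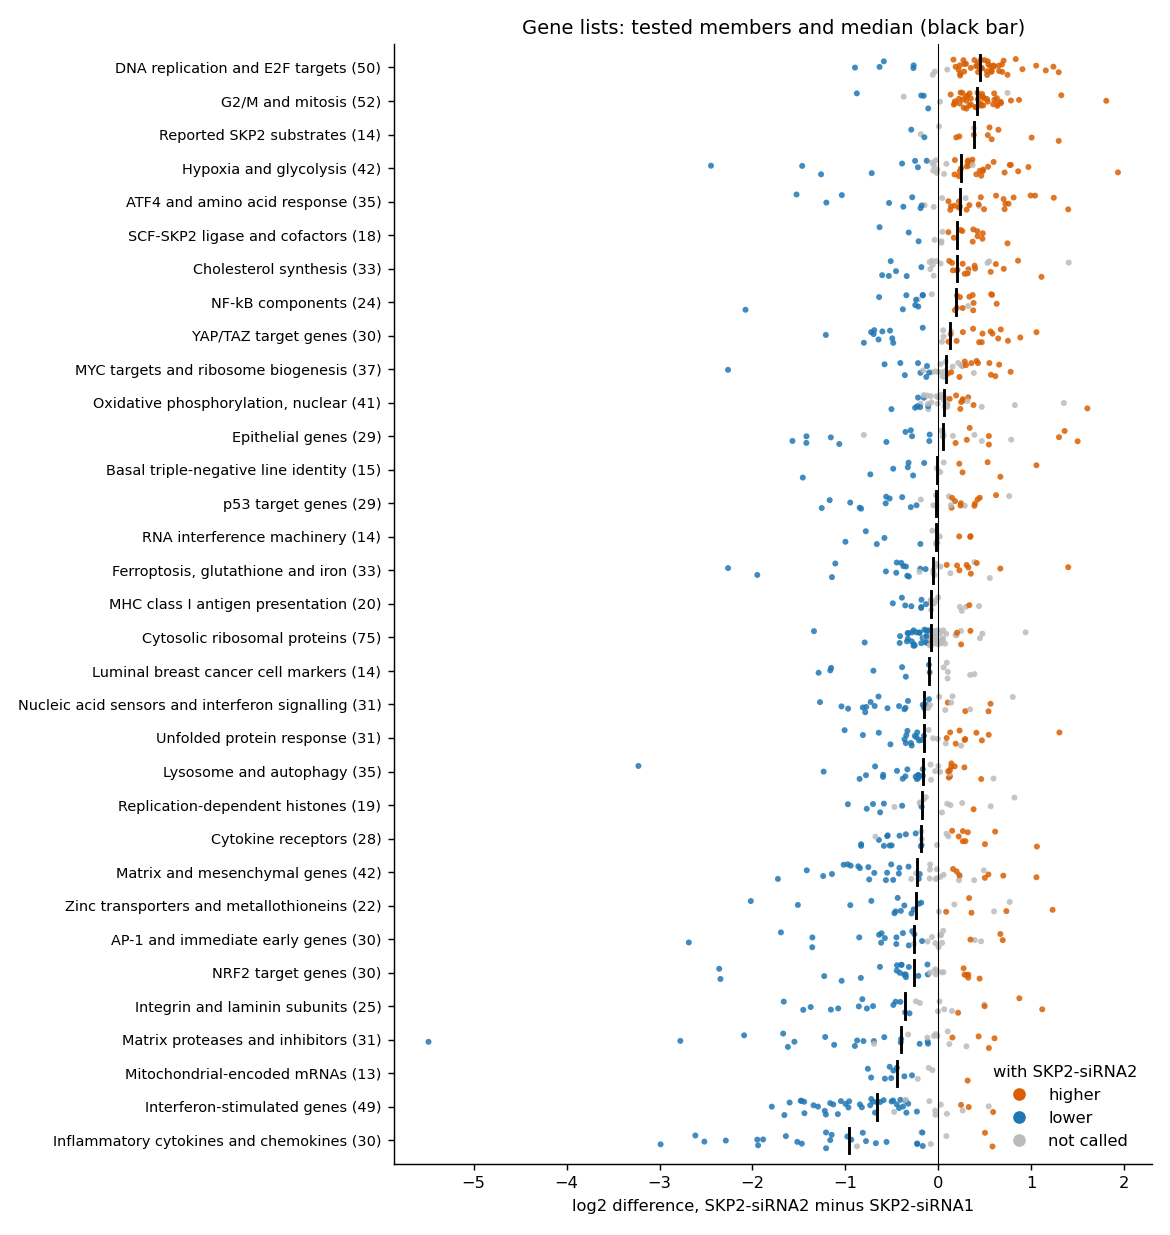
Log2 differences, SKP2-siRNA2 minus SKP2-siRNA1 (x axis), of the tested members of each gene list with at least 8 of them (number in parentheses); points are genes, coloured by call, and the black bar is the list's median. The medians run from -0.96 for inflammatory cytokines and chemokines to 0.45 for DNA replication and E2F targets.

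Iron and zinc genes held some of the larger single differences. TFRC, the transferrin receptor that brings iron into the cell, ran at 473, 469 and 484 CPM with SKP2-siRNA1, 100.3, 98.7 and 98.3 CPM with SKP2-siRNA2 and 581, 629.8 and 684 CPM in NC (-2.26, SE 0.029, edgeR adjusted p 3.74e-11). SLC11A2, the iron transporter DMT1, averaged 54.8, 25.4 and 69.6 CPM (-1.11), and ACO1, the iron regulatory protein IRP1, 302, 204 and 326 CPM (-0.56). Over the 33 genes of ferroptosis, glutathione and iron, 14 were lower and 9 higher (median -0.05). Of 22 zinc transporters and metallothioneins, 13 were lower, 5 higher and 4 not called (median -0.24). SLC30A1, which exports zinc across the plasma membrane, ran at 120.0, 117 and 117 CPM with SKP2-siRNA1, 28.1, 27.3 and 31.9 CPM with SKP2-siRNA2 and 77.6, 80.2 and 87.7 CPM in NC (-2.02, SE 0.055). MTF1, the zinc-sensing transcription factor known to activate it, averaged 59.99, 21.1 and 54.1 CPM (-1.51). MT1E, a metallothionein of a family with near-identical members, averaged 53.2 and 32.3 CPM (-0.72), and SLC39A9, the transporter ZIP9, was higher (0.73).

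NRF2 target genes, which answer oxidative stress, were lower in 18 of 30 and higher in 6 (median -0.27). TXNRD1, thioredoxin reductase, ran at 717, 709 and 718 CPM with SKP2-siRNA1, 354, 344 and 344 CPM with SKP2-siRNA2 and 549, 596 and 616 CPM in NC (-1.04, SE 0.028). AKR1B1, an aldo-keto reductase, averaged 363, 155 and 267 CPM (-1.23), and GCLM, a subunit of glutathione synthesis, 123, 90.01 and 94.4 CPM (-0.45). Of 35 lysosome and autophagy genes, 19 were lower and 9 higher (median -0.17). Beside LAMP1, NEU1, the lysosomal sialidase, averaged 90.03, 38.3 and 94.4 CPM (-1.23), BECN1, which starts autophagosome formation, 102, 56.7 and 90.4 CPM (-0.85), and LAMP2 258, 171 and 228 CPM (-0.59). For NEU1, as for LAMP1, SKP2-siRNA1 was near NC.

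Genes of amino acid supply and glycolysis were higher with SKP2-siRNA2 more often than lower. Of 35 genes of ATF4 and the amino acid response, 22 were higher, 8 lower and 5 not called (median 0.23). PSAT1, an enzyme of serine synthesis, ran at 73.9, 69.7 and 73.5 CPM with SKP2-siRNA1, 156, 138 and 153 CPM with SKP2-siRNA2 and 159, 169 and 172 CPM in NC (1.04, SE 0.049), and the other enzymes of that pathway, PHGDH (0.81) and PSPH (0.99), were higher too. SLC7A1, a cationic amino acid transporter, averaged 110.4, 182 and 305 CPM (0.72), the opposite direction to SLC7A2. CEBPB, a stress-responsive transcription factor on the same list, was lower (-1.53). Of 42 genes of hypoxia and glycolysis, 24 were higher, 8 lower and 10 not called (median 0.24). BNIP3, a mitophagy receptor, averaged 181, 328 and 132 CPM (0.86) and PFKFB4, a regulator of glycolysis, 44.4, 87 and 35.7 CPM (0.97). SLC2A3, the glucose transporter GLUT3, went against them, at 85.1, 84.98 and 88.4 CPM with SKP2-siRNA1, 16.05, 15.4 and 16 CPM with SKP2-siRNA2 and 52.9, 56.6 and 61.7 CPM in NC (-2.45, SE 0.039), as did EPAS1, which encodes HIF-2 alpha (-1.46).

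Of 33 genes of cholesterol synthesis and uptake, 16 were higher and 6 lower (median 0.20). The share called, 66.7%, was near the 63.7% among protein-coding genes. IDI1, an isomerase of the pathway's isoprenoid part, averaged 83.7 and 129 CPM (0.62), while INSIG1, which holds back the pathway, averaged 68.9 and 45.3 CPM (-0.60). Of 31 genes of the unfolded protein response, 16 were lower and 10 higher (median -0.15), beside 27.9% lower and 29.3% higher over all genes. PDIA4, a disulfide isomerase, ran at 337, 328 and 333 CPM with SKP2-siRNA1 and 167, 165 and 164 CPM with SKP2-siRNA2 (-1.01, SE 0.027), and PDIA6, of the same family, at 201, 202 and 201 CPM and 304, 291 and 285 CPM, the opposite direction (0.54).

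The ribosomal protein genes differed little as a group: of 75 tested, 27 were lower, 3 higher and 45 not called (median -0.08). RPS3 stood apart at 876, 812 and 832 CPM with SKP2-siRNA1, 349, 333 and 315 CPM with SKP2-siRNA2 and 810.2, 896 and 955 CPM in NC (-1.34, SE 0.044), and RPL15 averaged 525 and 303 CPM (-0.79). Ribosomal protein genes have many processed pseudogenes that could share their reads. Of 37 MYC targets and ribosome biogenesis genes, 14 were higher and 9 lower (median 0.08), a share called of 62.2%, near the 63.7% among protein-coding genes. NCL, nucleolin, averaged 527, 904 and 1029 CPM (0.78). Of 30 YAP/TAZ target genes, 15 were higher and 11 lower (median 0.12), and YAP1 and TEAD1, the coactivator and its DNA-binding partner on that list, were lower (-0.64 and -0.70). Of 29 p53 target genes, 10 were higher and 11 lower, with a median of -0.02 that changed sign in some alternatives; TP53INP1, an inducer of stress-related cell death, was lower (-1.25).

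Of 14 genes of the RNA interference machinery, which both siRNAs use, 3 were higher, 5 lower and 6 not called. The share called, 57.1%, was near the 57.2% over all genes, and the median of -0.02 changed sign in some alternatives. DICER1, the nuclease that makes small RNAs, ran at 179.9, 187 and 183 CPM with SKP2-siRNA1, 113, 105 and 103 CPM with SKP2-siRNA2 and 256, 270.4 and 299 CPM in NC (-0.78, SE 0.038). TNRC6B, a scaffold of the silencing complex, averaged 147, 73.4 and 97.7 CPM (-0.999), with TNRC6C (-0.58), AGO4 (-0.66) and AGO3 (-0.19) also lower and TNRC6A (0.34), TARBP2 (0.35) and SND1 (0.22) higher. AGO2, the argonaute that cuts a matched transcript, averaged 378 ± 10.5 and 372 ± 3.85 CPM (SD, n = 3) and was not called (-0.02, edgeR adjusted p 0.534).

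Markers of the line and of other cells were read beside these results. Of 15 genes of basal triple-negative identity, 5 were higher, 7 lower and 3 not called, with a median of -0.02 that changed sign in some alternatives. ANXA1, annexin A1, averaged 641 and 233 CPM (-1.46) and CAV1, caveolin-1, 492 and 711 CPM (0.53). Of 14 luminal markers, 8 were lower, 0 higher and 6 not called, beside 27.9% lower and 29.3% higher over all genes. Their share called in either direction, 57.1%, was near the 57.2% over all genes. TFF1 (-1.29) and TFF3 (-1.16), both below 10 CPM, were among the lower ones. The summed level of the 14 luminal markers was 1214 to 1216 CPM with SKP2-siRNA1, 1180 to 1393 CPM with SKP2-siRNA2 and 996 to 1202 CPM in NC. Of the immune markers, 6 were tested, with 2 higher, 1 lower and 3 not called, and their summed level was 11.5 to 12.9 CPM with SKP2-siRNA1, 11.7 to 12.5 CPM with SKP2-siRNA2 and 7.38 to 7.96 CPM in NC; CD3E, CD68 and NKG7 were among those with too few counts to be tested. Of the endothelial markers, 1 of 6 was higher (ESAM, 0.62) and 3 were lower, led by PECAM1 (-1.37), and CDH5 and VWF had too few counts; their summed level, most of it ESAM, was 220.3 to 228 CPM with SKP2-siRNA1 and 271 to 297 CPM with SKP2-siRNA2. The 7 fibroblast markers tested held 1 higher gene, ACTA2 (1.53), and 5 lower ones, among them COL1A1 (-0.86), whose call was lost in some alternatives. The part of other cells in the results was not tested.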

How the data were processed

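RNA-seq gene counts of 9 MDA-MB-231 libraries were used as deposited, whole numbers per Ensembl gene (58395 identifiers), and only the 6 SKP2 siRNA libraries entered the comparison. The authors made the counts with Trim Galore 0.4.1, FastQC 0.11.2, STAR and HTSeq 0.6.1, and DESeq2 1.16.1 is also named, per the submitters' processing notes. The roles of these tools, the genome build, the annotation and the strand setting are not given in the sources used here. The counter's closing lines were left out of the totals (no feature 5.34% to 5.92%, ambiguous 3.87% to 3.97% of these lines and the gene counts together).

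Genes were filtered with filterByExpr (minimum count 10, minimum total 15), scaled by TMM and tested with edgeR 4.0.16's quasi-likelihood test in R 4.3.3 (limma 3.58.1, with DESeq2 1.42.0 as an alternative), without a replicate block, with Benjamini-Hochberg adjustment over all 16250 genes and a threshold of 0.05. The steps were tested on simulated data. Named genes were SKP2, SLC39A7, LAMP1 and the CDK inhibitors, the 12 largest called differences per direction at a mean of at least 5 CPM with no overlap, the 4 largest per direction by difference of mean CPM, 3 lncRNA genes per direction with at least 1 CPM, and from each of 36 gene lists up to 6 members with the smallest adjusted p; lists of 15 or fewer tested members, and members spelled out where 5 or fewer moved one way, allow any name. The comparison, its lists (1137 of 1139 entries matched an identifier) and rules were chosen with earlier results of these data known, and the 3′UTR words after seeing the values. Positions and 3′UTRs are those of GENCODE 29 on GRCh38 (58275 identifiers placed), matched by identifier, and promoters those of RefSeq on GRCh38.p14. Some list members are not reported here.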

Additional observations from a re-analysis of the deposited data

How the results depend on the processing

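The alternatives were RLE, library size and upper quartile scaling, no filter on low counts, at least 1 CPM in 3 libraries, DESeq2, a fit of all 9 libraries, GC offsets and leaving out each library. The counts of higher and lower genes stayed within 1.5 times of 4761 and 4541 in each of them, and the higher share of the calls ran from 48.6% to 55.9%. With at least 1 CPM in 3 libraries, which tests fewer genes (13387), 271 genes were at least 2-fold higher, against 439. Leaving out 1 library gave 4003 to 4935 higher and 4028 to 4994 lower genes, 400 to 540 of them at least 2-fold higher and 702 to 820 at least 2-fold lower. The highest counts came without SKP2-siRNA2 replicate 1. Of the 284 named genes that were called, 255 kept direction and call in every alternative. The sign turned for 2 named genes: the log2 difference of CYC1 went from 0.26 to -0.048 with GC offsets and -0.0594 with GC offsets and the replicate block, and the log2 difference of JUND from 0.35 to -0.0166 and -0.0193; the cause was not tested. Of the 36 lists, 30 kept the sign of their median.

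Same-numbered replicates did not deviate together (correlations of -0.05, 0.04 and -0.12 over 13299 genes), so the numbers were not taken to pair the libraries. With the replicate block, 4493 genes were higher and 4327 lower, 422 and 709 of them at least 2-fold. Settings for the 3′UTR words were added after seeing the data: the difference from genes with none of the words ran from -0.31 to -0.24 for TGGTGTT, from -0.24 to -0.17 for CCTTTAA and from 0.05 to 0.13 for AAGTGAT.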
